A study of Mus musculus with 8 samples.

Results

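The genes described here are 10 members of the epidermal growth factor (EGF) receptor system in murine articular chondrocytes: the ligands *Ereg*, *Areg*, *Hbegf*, *Tgfa*, *Btc* and *Nrg1*, the receptors *Egfr*, *Erbb2* and *Erbb3*, and the feedback inhibitor *Errfi1*. They were taken by name from the 54658 gene symbols of the deposited count table, and each of the 10 names matched 1 row. RNA-Seq was performed on 4 samples treated with IL-1β, a proinflammatory cytokine, and 4 treated with vehicle. The cells of both groups were primary chondrocytes of wild-type mice aged 3 weeks, taken from the cartilage of the femoral head. Exposure to IL-1β was at 1 ng/mL over 24 h. The labels' growth protocol gives 10% FBS, whereas the methods name a lower FBS content for murine cultures after transfection. The mouse strain, the composition of the vehicle and whether the 4 samples of a group came from separate mice or cultures are not given in the sources used here, so the p-values measure only the spread between these samples, which may be technical.

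EGF-family ligands are made as membrane-anchored precursors, and metalloproteinases such as ADAM17 release the soluble factor from the cell surface. The released factor binds a receptor of the ErbB family, which pairs with a second receptor and signals through adaptors, Ras and ERK. ErbB2 has no known ligand of its own and acts as a partner, and ErbB3 has little kinase activity and binds the neuregulins. *Errfi1* encodes MIG-6, which is induced by receptor signaling, binds the kinase domain of EGFR and blocks it. In mice, loss of MIG-6 is known to lead to degeneration of the joints.

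The ligands share the EGF-like motif, in which 6 cysteines hold the fold that contacts the receptor. The coding bases of this motif are printed, 5′ to 3′ on the coding strand, for the ligand that moved most (*Ereg*) and for 4 of its relatives, to show how alike the ligands are outside their abundance. Capitals mark the 6 cysteine codons, and all bases were read from the GENCODE vM21 coding transcripts on GRCm38.
Ereg: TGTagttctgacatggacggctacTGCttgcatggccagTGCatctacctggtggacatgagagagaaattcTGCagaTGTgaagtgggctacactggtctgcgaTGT
Areg: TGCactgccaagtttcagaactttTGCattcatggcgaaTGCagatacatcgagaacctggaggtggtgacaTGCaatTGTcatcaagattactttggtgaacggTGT
Tgfa: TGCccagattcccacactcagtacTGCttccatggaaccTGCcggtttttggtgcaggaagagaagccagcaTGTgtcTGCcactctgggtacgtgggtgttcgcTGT
Btc: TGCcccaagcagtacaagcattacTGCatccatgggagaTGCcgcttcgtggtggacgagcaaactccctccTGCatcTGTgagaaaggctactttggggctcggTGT
Nrg1: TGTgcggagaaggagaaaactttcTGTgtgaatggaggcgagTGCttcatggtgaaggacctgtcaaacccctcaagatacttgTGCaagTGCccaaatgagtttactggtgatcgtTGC

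The motif was found 1 time in the coding sequence of each ligand, and in each it was split over 2 exons, so the coordinates include an intron. For *Ereg* it lay at chr5:91088496-91089111 on the plus strand (codons 61 to 96), and for *Areg*, on the same chromosome and strand, at chr5:91143614-91144364 (codons 139 to 174). *Btc* had it at chr5:91362421-91366197 on the minus strand, *Tgfa* at chr6:86263200-86269960 on the plus strand, and *Nrg1* at chr8:31837698-31849398 on the minus strand. In *Ereg*, *Areg*, *Tgfa*, *Btc* and *Hbegf*, the cysteine codons were 7, 4, 10, 1 and 8 codons apart. In *Nrg1* these gaps were 7, 5, 13, 1 and 8 codons, which made its motif 120 bases long in place of 108.

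IL-1β shifted the ligands in different directions. *Ereg* was 8.75-fold higher and *Nrg1* 2.39-fold higher after IL-1β, whereas *Hbegf*, the most abundant ligand per length in both groups, was lower, at 0.686 of its vehicle level. *Egfr* and *Errfi1* both rose, by 1.67-fold and 1.62-fold. Thus 4 members rose, 1 fell and 3 did not pass the test (*Tgfa*, *Erbb2* and *Erbb3*), while *Areg* and *Btc* were too low to be tested. Abundances are CPM (counts scaled to the size of each library) scaled by edgeR's TMM factors, and genes were tested by edgeR's quasi-likelihood test if their CPM was above 1 in at least 4 samples. A gene counted as changed at a Benjamini-Hochberg adjusted p-value under 0.05 over the 14404 genes tested, and as a differentially expressed gene (DEG) if it was also beyond 2-fold.

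Of the 8 members tested, 5 were changed (62.5%), against 40.2% of all genes tested. The 4 members that rose stand beside 20.4% of all genes tested that rose, and the 1 that fell beside 19.8% that fell. *Ereg* and *Nrg1* were DEGs, a class of 5.21% of the genes tested. The 4 IL-1β samples did not overlap the 4 vehicle samples in 5 members, and this was so for 36.8% of all genes tested. The median log2 fold change was 0.53 over the 8 members and -0.0012 over all genes tested. In these bulk samples, fewer cells of a type and less RNA per cell cannot be told apart.

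**Figure D1:**
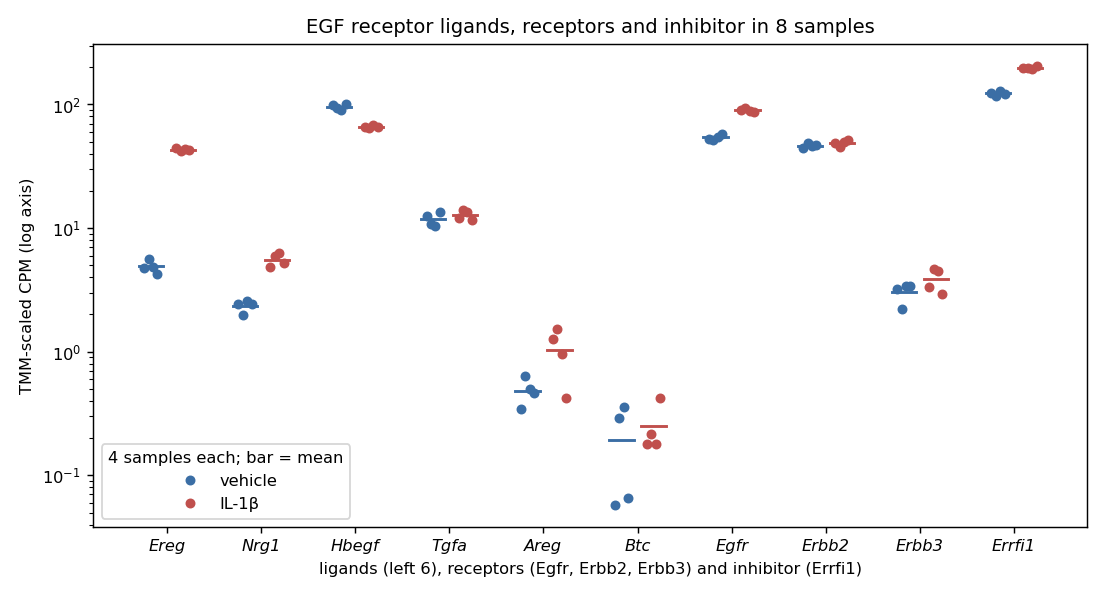
TMM-scaled CPM (log axis) of the 10 members in each of the 4 vehicle samples (blue) and the 4 IL-1β samples (red), with the bar at the group mean. *Ereg* lies between 41.8 and 44.2 CPM after IL-1β and between 4.27 and 5.66 CPM with vehicle, whereas *Hbegf* lies lower after IL-1β.

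*Ereg* (ENSMUSG00000029377.5) encodes epiregulin, which binds EGFR and ErbB4, and lies on chromosome 5 at 91074622 to 91093646 (GRCm38, plus strand). Its abundance was 44.2, 41.8, 43.7 and 42.5 CPM in IL-1β samples 1 to 4. In vehicle samples 1 to 4 it was 4.79, 5.66, 4.85 and 4.27 CPM. Every IL-1β sample was above every vehicle sample, and the samples within a group lay close together. The counts behind these values were 491, 580, 735 and 599 with IL-1β and 83, 98, 68 and 65 with vehicle. The mean was 43.1 ± 1.10 CPM against 4.89 ± 0.574 CPM (SD, n = 4 each), a log2 fold change of 3.13 (SE 0.0737, edgeR adjusted p = 8.01e-24). Ranked by log2 fold change, *Ereg* was number 49 of the 14404 genes tested. Of its exon bases, 3.42% are shared with the antisense gene *Gm19610*, and the strand setting of the counting is not given in the sources used here.

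*Nrg1* (ENSMUSG00000062991.7) encodes neuregulin 1, a ligand of ErbB3 and ErbB4, and lies on chromosome 8 at 31814551 to 32884029 (minus strand). It was low in every sample, with 54, 82, 105 and 73 counts in IL-1β samples 1 to 4 and 42, 34, 36 and 37 counts in vehicle samples 1 to 4. These counts correspond to 4.87, 5.91, 6.24 and 5.18 CPM with IL-1β and to 2.42, 1.96, 2.57 and 2.43 CPM with vehicle. All IL-1β samples were above all vehicle samples. The mean rose from 2.35 ± 0.263 to 5.55 ± 0.635 CPM (SD, n = 4 each), a log2 fold change of 1.26 (SE 0.149, edgeR adjusted p = 5.17e-08). Of the exon bases, 4.66% are shared with the antisense gene *Gm26578*.

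*Hbegf* (ENSMUSG00000024486.6) encodes heparin-binding EGF-like growth factor, which binds EGFR and ErbB4. Its abundance was 66.0, 64.3, 68.2 and 65.3 CPM in IL-1β samples 1 to 4 and 99.5, 94.5, 90.6 and 100.4 CPM in vehicle samples 1 to 4. Every IL-1β sample was below every vehicle sample. *Hbegf* fell from 96.3 ± 4.55 to 66.0 ± 1.66 CPM (SD, n = 4 each), a log2 fold change of -0.54 (SE 0.0399, edgeR adjusted p = 3.08e-12). It was the only member tested that fell, and the change did not reach 2-fold.

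*Tgfa* (ENSMUSG00000029999.14; chromosome 6, 86195223 to 86275719, plus strand) encodes transforming growth factor alpha, a ligand of EGFR. Its abundance was 12.0, 14.1, 13.5 and 11.6 CPM with IL-1β and 12.6, 10.7, 10.4 and 13.5 CPM with vehicle. The groups overlapped, with 2 vehicle samples above the lowest IL-1β sample. The log2 fold change was 0.12 (SE 0.0959, edgeR adjusted p = 0.352), with a 95% confidence interval of -0.08 to 0.32.

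*Areg* (ENSMUSG00000029378.5; chromosome 5, 91139599 to 91148432, plus strand) encodes amphiregulin, another ligand of EGFR, and neighbors *Ereg* on the same strand. It was near the limit of detection, with 14, 21, 16 and 6 counts in IL-1β samples 1 to 4 and 6, 11, 7 and 7 counts in vehicle samples 1 to 4. In CPM, the IL-1β samples had 1.26, 1.51, 0.950 and 0.426 and the vehicle samples 0.346, 0.636, 0.499 and 0.460. IL-1β samples 1 to 3 were above all vehicle samples, but sample 4 was below 3 of them. The mean was 1.04 ± 0.469 CPM against 0.485 ± 0.119 CPM (SD, n = 4 each; two-sided exact permutation p = 0.114, over 8 samples). *Areg* was left out of the main test by the filter on low values. With no such filter its log2 fold change was 1.06 (SE 0.355, edgeR adjusted p = 0.0188), so its call rests on the filter.

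*Btc* (ENSMUSG00000082361.6; chromosome 5, 91357261 to 91402994, minus strand) encodes betacellulin, a ligand of EGFR and ErbB4. It had 2, 3, 3 and 6 counts in IL-1β samples 1 to 4 and 1, 5, 5 and 1 counts in vehicle samples 1 to 4. At 3 counts, the smallest abundance taken as detectable (0.173 to 0.270 CPM, depending on the sample), these values do not allow a comparison.

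Levels of different genes were compared as TMM-scaled CPM per kilobase of the gene length listed beside the counts. With vehicle, the ligands ranked as *Hbegf* (40.6 ± 1.92), *Tgfa* (1.82 ± 0.227), *Ereg* (1.19 ± 0.139), *Areg* (0.399 ± 0.0983), *Nrg1* (0.227 ± 0.0254) and *Btc* (0.0425 ± 0.0339), in CPM per kilobase (SD, n = 4). After IL-1β, *Ereg* moved above *Tgfa*, to 10.4 ± 0.266 CPM per kilobase, and *Hbegf* remained first, at 27.8 ± 0.701 CPM per kilobase. *Areg* (0.854 ± 0.386) and *Nrg1* (0.536 ± 0.0614) followed *Tgfa* (1.97 ± 0.182) in CPM per kilobase.

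As a share of the summed level per kilobase of the 6 ligands, *Hbegf* made up 91.7 ± 0.328% with vehicle (91.3 to 92.0%) and 66.8 ± 0.950% after IL-1β (65.7 to 67.9%). The share of *Ereg* was 2.69 ± 0.382% with vehicle (2.25 to 3.14%) and 25.0 ± 0.497% after IL-1β (24.6 to 25.6%). For neither ligand did the groups overlap. The ratio of *Ereg* to *Hbegf*, per kilobase, was 0.0293 ± 0.00427 with vehicle and 0.375 ± 0.00723 after IL-1β (SD, n = 4 each). The summed level of all 6 ligands, in contrast, was 45.5, 43.6, 41.7 and 46.1 CPM per kilobase in vehicle samples 1 to 4 and 41.9, 41.3, 42.8 and 40.6 CPM per kilobase in IL-1β samples 1 to 4. These sums overlapped between the groups. They rest mostly on the listed length of *Hbegf*, 2373 bases, against 4834 exon bases in GENCODE vM21, a length not used here.

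**Figure D2:**
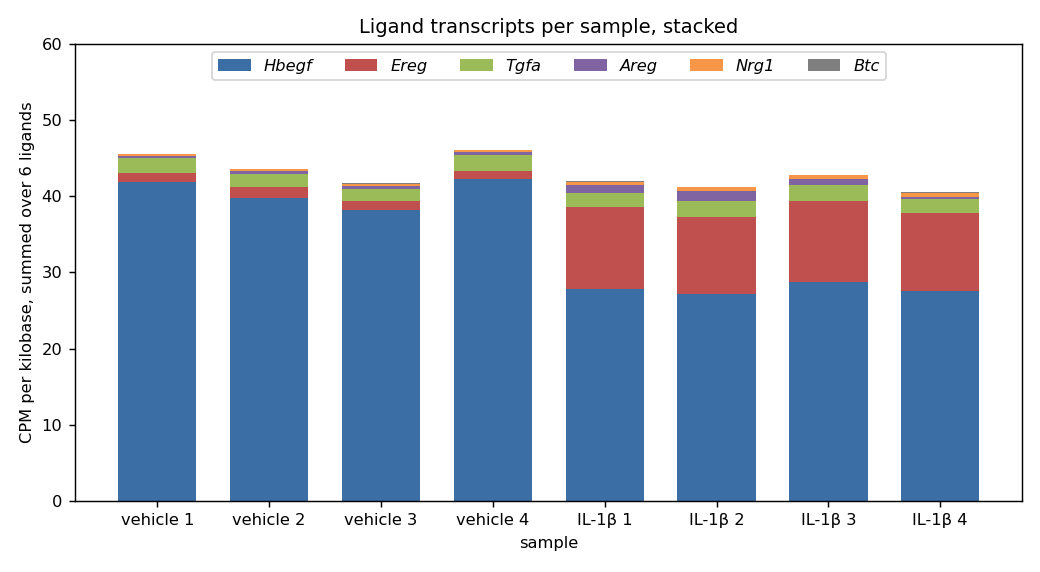
Stacked TMM-scaled CPM per kilobase of the 6 ligands in each of the 8 samples. On the listed gene lengths, the summed height overlaps between the groups (41.7 to 46.1 with vehicle, 40.6 to 42.8 after IL-1β). *Ereg* takes up 24.6 to 25.6% of it after IL-1β and 2.25 to 3.14% with vehicle.

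The receptors were next examined. *Egfr* (ENSMUSG00000020122.16; chromosome 11, 16752203 to 16918158, plus strand) encodes the receptor that gives the family its name. Its abundance was 90.6, 93.3, 89.4 and 86.9 CPM in IL-1β samples 1 to 4 and 52.4, 51.8, 54.5 and 57.8 CPM in vehicle samples 1 to 4. The groups were far apart relative to their spread. *Egfr* rose from 54.1 ± 2.68 to 90.1 ± 2.68 CPM (SD, n = 4 each), a log2 fold change of 0.74 (SE 0.0415, edgeR adjusted p = 8.73e-15).

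*Erbb2* (ENSMUSG00000062312.5; chromosome 11, 98412470 to 98437716, plus strand), the partner receptor, had 49.0, 45.6, 49.8 and 51.6 CPM with IL-1β and 44.5, 48.6, 46.0 and 46.7 CPM with vehicle. The groups overlapped. Its log2 fold change was 0.08 (SE 0.0454, edgeR adjusted p = 0.192), with a 95% confidence interval of -0.02 to 0.17.

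*Erbb3* (ENSMUSG00000018166.8; chromosome 10, 128567523 to 128589652, minus strand), the neuregulin receptor with little kinase activity, had 3.33, 4.69, 4.51 and 2.91 CPM in IL-1β samples 1 to 4. In vehicle samples 1 to 4 it had 3.23, 2.20, 3.42 and 3.42 CPM. IL-1β samples 2 and 3 were above all vehicle samples, and samples 1 and 4 were not. The log2 fold change was 0.36 (SE 0.177, edgeR adjusted p = 0.113), with a 95% confidence interval of -0.01 to 0.72. Without IL-1β sample 4 it was 0.48 with an edgeR adjusted p of 0.0310, so 1 sample decides this call.

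With *Egfr* higher and *Erbb2* overlapping between the groups, the ratio of *Egfr* to *Erbb2* per kilobase was 0.542, 0.490, 0.545 and 0.569 in vehicle samples 1 to 4 and 0.851, 0.942, 0.825 and 0.775 in IL-1β samples 1 to 4. The ratio did not overlap between the groups, and on this length *Erbb2* exceeded *Egfr* in all 8 samples. On the length of the longest coding transcript, the ratio reached 1.01 in IL-1β sample 2, where *Egfr* was the higher. In CPM per kilobase, *Egfr* had 4.78 ± 0.237 with vehicle and 7.95 ± 0.237 after IL-1β, and *Erbb2* had 8.92 ± 0.328 and 9.40 ± 0.482 (SD, n = 4 each). *Erbb3* was much lower, with 0.510 ± 0.0977 CPM per kilobase with vehicle and 0.642 ± 0.145 after IL-1β.

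*Errfi1* (ENSMUSG00000028967.10; chromosome 4, 150853919 to 150868892, plus strand), the feedback inhibitor, had 198, 197, 195 and 205 CPM in IL-1β samples 1 to 4 and 124, 117, 128 and 122 CPM in vehicle samples 1 to 4. Every IL-1β sample was above every vehicle sample. *Errfi1* rose from 123 ± 4.37 to 199 ± 4.30 CPM (SD, n = 4 each), a log2 fold change of 0.70 (SE 0.0312, edgeR adjusted p = 3.87e-17). For *Errfi1*, as for *Ereg*, *Nrg1*, *Hbegf* and *Egfr*, the two-sided exact permutation p over the samples was 0.0286, the smallest that 4 against 4 can give.

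The rise of *Errfi1* was 1.62-fold and that of *Egfr* 1.67-fold. The ratio of *Errfi1* to *Egfr* per kilobase was 7.47, 7.16, 7.42 and 6.68 in vehicle samples 1 to 4 and 6.92, 6.67, 6.91 and 7.46 in IL-1β samples 1 to 4. The means were 7.18 ± 0.361 and 6.99 ± 0.337 (SD, n = 4 each), and the groups overlapped.

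**Figure D3:**
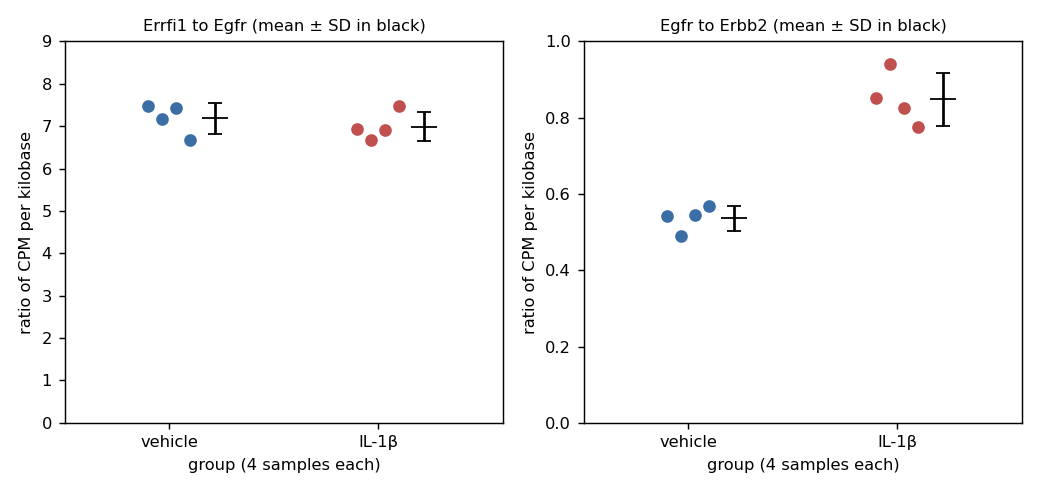
Ratios of TMM-scaled CPM per kilobase in each sample, with the mean ± SD in black: *Errfi1* to *Egfr* (left) and *Egfr* to *Erbb2* (right). The first ratio overlaps between vehicle (6.68 to 7.47) and IL-1β (6.67 to 7.46), and the second does not (0.490 to 0.569 and 0.775 to 0.942).

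Across all 10 members, *Errfi1* had the highest level per kilobase after IL-1β (55.5 ± 1.20), followed by *Hbegf*, *Ereg*, *Erbb2*, *Egfr*, *Tgfa*, *Areg*, *Erbb3*, *Nrg1* and *Btc*. In this order, *Areg* and *Erbb3*, and *Erbb3* and *Nrg1*, did not differ beyond the spread of the samples. With vehicle the order was *Hbegf*, *Errfi1* (34.3 ± 1.22), *Erbb2*, *Egfr*, *Tgfa*, *Ereg*, *Erbb3*, *Areg*, *Nrg1* and *Btc*, and here *Erbb3* and *Areg* overlapped. *Nrg1* depends on the length used: its listed length is 10351 bases and its longest coding transcript is 2452 bases. On the length of the longest coding transcript, *Nrg1* was at 0.957 ± 0.107 CPM per kilobase with vehicle and 2.26 ± 0.259 after IL-1β, above *Areg* and *Erbb3*, and *Hbegf* and *Errfi1* overlapped with vehicle. On that length, the samples of *Ereg* and *Erbb2*, and of *Erbb2* and *Egfr*, also overlapped after IL-1β, as did those of *Ereg* and *Nrg1* with vehicle.

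Promoter windows of 250 bases before to 50 bases after the start of a gene (RefSeq, GRCm38.p6) were at hand for 6 members (*Areg*, *Btc*, *Egfr*, *Erbb2*, *Errfi1* and *Tgfa*), 7 windows in all. Each was searched on both strands for the AP-1 letters TGANTCA, the cAMP response element (CRE) letters TGACGTCA and the NF-kB motif. The CRE letters were in 2 windows, of *Areg* and of the second start of *Errfi1*, and in 1.79% of all 32851 windows. The AP-1 letters were in 0 of the 7 windows (7.81% of all windows), and the NF-kB motif was in 1 window, of *Tgfa* (8.46% of all windows). For *Errfi1*, which rose, and *Areg*, the 100 bases before the start are printed to show the shared letters, in capitals.
Areg: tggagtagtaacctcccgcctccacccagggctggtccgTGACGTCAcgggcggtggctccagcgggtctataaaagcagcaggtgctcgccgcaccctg
Errfi1: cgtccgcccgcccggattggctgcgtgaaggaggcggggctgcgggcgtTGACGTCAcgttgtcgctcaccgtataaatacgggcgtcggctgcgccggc

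The *Areg* bases are chr5:91139499-91139598 and the *Errfi1* bases chr4:150854970-150855069, both on the plus strand, and the latter lies within the gene but in no exon of the GENCODE vM21 annotation. The letters began 61 bases before the start of *Areg* and 51 bases before that of *Errfi1*. A match of letters describes the window only and is not a measured binding site.

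The miRNA miR-146a-5p is the subject of the study, and its seed was searched in the members' 3′ untranslated regions, a search chosen after the files had been seen. Its mature sequence (RefSeq, GRCm38.p6, chr11:43374435-43374456, minus strand) is shown with the seed, bases 2 to 8, in capitals, since the site searched is the complement of this seed.
miR-146a-5p: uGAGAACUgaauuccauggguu

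The site letters AGTTCTC were in the 3′ untranslated region of the longest coding transcript of 0 of the 10 members. Among the 11785 tested genes with such a region, 1325 (11.2%) held them. In only 10 members, a count of 0 cannot be told apart from this share. Matches of 6 bases occurred in 4 members (*Egfr*, *Erbb3*, *Tgfa* and *Errfi1*), 1 in each. The share of all genes tested with a 6-base match was not counted, so this number has no background beside it. Whether an A follows these matches, another form of site, was not examined.

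Other genes of the pathway were then examined in a list of 60 genes. Of these, 55 were tested, 26 rose, 14 fell and 15 did not pass the test, so that 72.7% were changed, against 40.2% of all genes tested. Most of the changes were small: 5 genes were upregulated DEGs, 2 were downregulated DEGs, and the median log2 fold change was 0.11. Among all genes tested, 20.4% rose, 19.8% fell and 5.21% were DEGs, 412 of them upregulated and 339 downregulated.

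The 7 genes of ligand shedding were all changed, 6 higher and 1 lower. Among all genes tested, 40.2% were changed, 20.4% higher and 19.8% lower. *Rhbdf2*, which encodes the iRhom2 cofactor that brings ADAM17 to the cell surface, rose from 49.1 ± 1.57 to 117 ± 4.66 CPM (SD, n = 4 each; log2 fold change 1.25, SE 0.0398, edgeR adjusted p = 1.15e-20). *Adam12*, a metalloproteinase that can cleave EGF-family precursors, rose from 6.17 ± 1.20 to 16.7 ± 0.912 CPM (log2 fold change 1.45, edgeR adjusted p = 4.57e-12). *Timp3*, an inhibitor of ADAM17 and other metalloproteinases, fell from 6092 ± 218 to 2548 ± 111 CPM (log2 fold change -1.26, edgeR adjusted p = 5.44e-24). Of the exon bases of *Timp3*, 21.3% are shared with the antisense gene *Syn3*. *Adam9* had a log2 fold change of 0.19 (edgeR adjusted p = 8.69e-06). *Adam17* itself, named here after its values were seen, rose from 69.5 ± 2.93 to 85.5 ± 1.17 CPM (log2 fold change 0.30, edgeR adjusted p = 2.27e-07).

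Among the remaining ligands of the family and the receptor *Erbb4*, 2 of 6 were tested. *Egf*, the founding ligand, had 22, 17, 24 and 16 counts in IL-1β samples 1 to 4 and 60, 50, 35 and 25 counts in vehicle samples 1 to 4. It fell by 0.90 on the log2 scale (SE 0.233, edgeR adjusted p = 0.00251), although 1 vehicle sample lay within the range of the IL-1β samples in CPM. *Nrg4* had a log2 fold change of -0.30 (edgeR adjusted p = 0.431). *Erbb4*, a receptor of neuregulins and of several EGFR ligands, had 0 counts in all 4 IL-1β samples and 4, 5, 5 and 10 counts in vehicle samples 1 to 4. *Erbb4* was too low for the main test. With no filter on low counts its log2 fold change was -5.53 (SE 1.16, edgeR adjusted p = 2.06e-05). Both the size and its SE rest on counts of 0. *Nrg3* had 0 counts in all 8 samples, and *Epgn* and *Nrg2* had at most 6 and 10 counts.

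Between the receptor and ERK, the changes were small in both directions. Of the 6 adaptors, 3 rose and 1 fell, and of the 9 genes of the Ras-ERK relay 4 rose and 2 fell. These counts stand beside 20.4% of all genes tested that rose and 19.8% that fell. The adaptor *Shc1* rose by 0.29, the phosphatase *Ptpn11* by 0.11, the ERK kinase *Map2k2* by 0.24 and the ERK gene *Mapk3* by 0.20 on the log2 scale (edgeR adjusted p = 6.85e-09, 0.00286, 4.96e-07 and 0.0004).

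Of the 8 genes of receptor removal, 4 rose and 1 fell, and of the 12 feedback genes 11 were tested, 5 rose and 3 fell. The shares over all genes tested were 20.4% that rose and 19.8% that fell. From the lists of receptor removal and feedback, *Lrig1*, *Lrig3*, *Spred2* and *Spry4* are named here after their values were seen. *Lrig1*, which promotes the degradation of ErbB receptors, rose from 7.87 ± 0.648 to 15.1 ± 0.553 CPM (SD, n = 4 each; log2 fold change 0.95, edgeR adjusted p = 7.68e-10). *Spred2*, which restrains Raf, rose from 36.1 ± 2.30 to 60.5 ± 4.53 CPM (log2 fold change 0.74, edgeR adjusted p = 1.58e-12). In the same lists, *Lrig3*, a relative of *Lrig1*, fell from 111 ± 3.82 to 84.9 ± 3.20 CPM (log2 fold change -0.39, edgeR adjusted p = 6.08e-10). *Spry4*, a Sprouty inhibitor of the Ras-ERK relay, fell from 6.12 ± 0.378 to 4.14 ± 0.854 CPM (log2 fold change -0.54, edgeR adjusted p = 0.00182).

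The 12 genes known to respond to ERK did not move together: 4 rose, 5 fell and 3 did not pass the test. Over all genes tested, 20.4% rose and 19.8% fell. *Ier3*, an early-response survival gene, rose from 48.4 ± 2.64 to 187 ± 4.65 CPM (SD, n = 4 each; log2 fold change 1.95, edgeR adjusted p = 6.66e-26). *Phlda1* rose from 23.5 ± 1.86 to 63.5 ± 2.24 CPM (log2 fold change 1.43, edgeR adjusted p = 1.97e-19), and 33.0% of its exon bases are shared with *Gm28592*. The transcription factor *Etv1* rose from 2.29 ± 0.272 to 4.62 ± 0.640 CPM (log2 fold change 1.02, edgeR adjusted p = 5.97e-06). Its DEG call rests on single samples: the log2 fold change was 0.94 without IL-1β sample 3, 0.96 without vehicle sample 1 and 0.98 without vehicle sample 4.

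The AP-1 subunits split. *Fos* fell from 24.7 ± 0.733 to 10.8 ± 0.659 CPM (SD, n = 4 each; log2 fold change -1.19, edgeR adjusted p = 3.52e-14), while *Fosl1* had a log2 fold change of 0.74 (edgeR adjusted p = 2.13e-15). Of the exon bases of *Fosl1*, 57.2% are shared with the antisense gene *Ccdc85b*. The immediate early gene *Egr1* fell from 258 ± 10.3 to 201 ± 7.68 CPM (log2 fold change -0.36, edgeR adjusted p = 1.27e-09). *Myc* fell by 0.14 on the log2 scale (edgeR adjusted p = 0.00204).

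**Figure D4:**
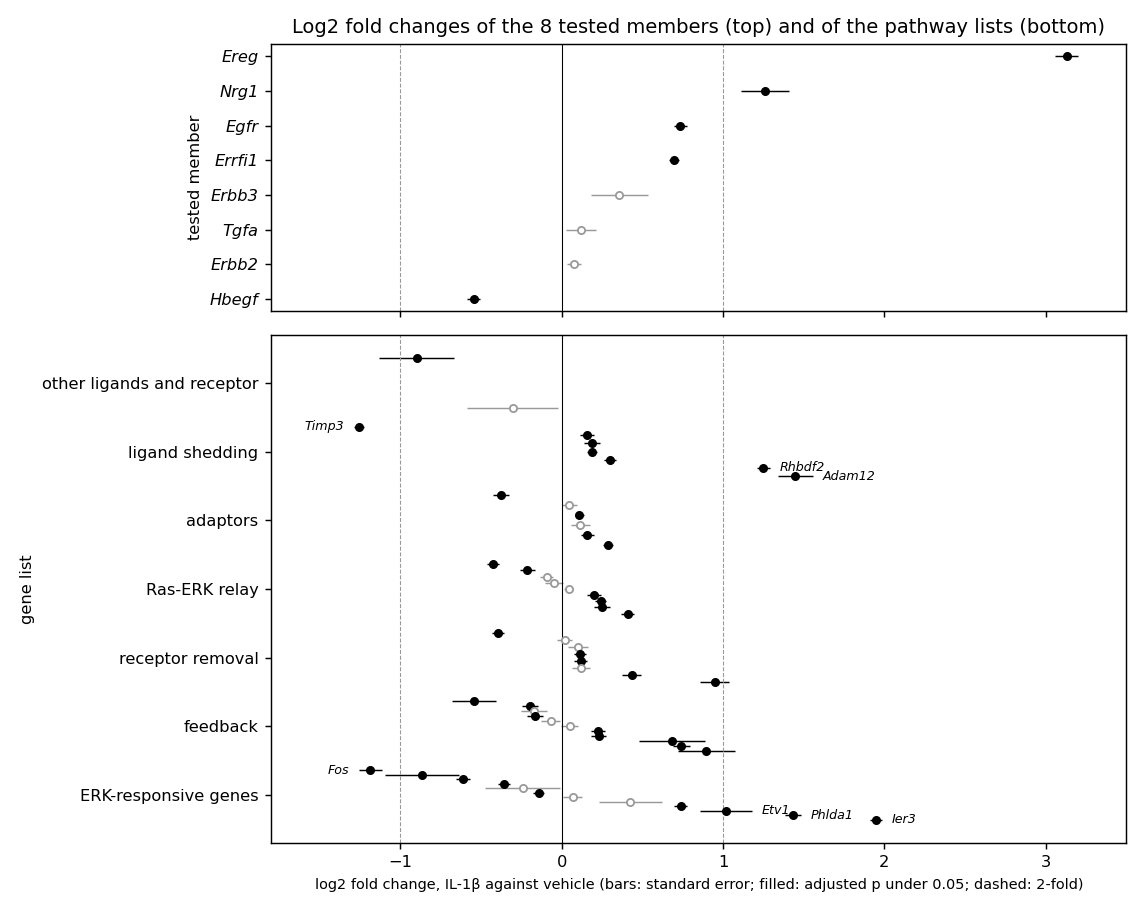
Log2 fold changes of IL-1β against vehicle, with bars for the standard error, for the 8 tested members (top) and the 55 tested genes of the pathway lists (bottom). Filled points had an adjusted p-value under 0.05 and dashed lines mark 2-fold: *Ereg* (3.13) and *Nrg1* (1.26) lie beyond it above, and *Hbegf* (-0.54) lies below 0 but short of 2-fold.

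The labelled cell type was checked against cell type markers. The 10 chondrocyte markers were all expressed, and all 10 were downregulated DEGs, a class of 339 of the 14404 genes tested. The summed level of these 10 markers was 14778 to 15359.8 CPM with vehicle and 3716 to 4088 CPM after IL-1β. *Prg4*, of superficial chondrocytes and of the synovial lining, had 827 to 879.7 CPM with vehicle and 1955 to 2069.7 CPM after IL-1β. The 8 leukocyte markers summed to 11.8 to 12.8 CPM with vehicle and 16.2 to 19.2 CPM after IL-1β, with *Cd3e* at 0 in all samples and *Adgre1* and *Itgam* at no more than 3 counts in any. Of these markers 2 were tested: *Cd68* rose from 9.48 ± 0.730 to 15.0 ± 1.56 CPM (SD, n = 4 each; edgeR adjusted p = 8.49e-07), and *Lyz2* fell from 1.86 ± 0.312 to 1.24 ± 0.226 CPM (edgeR adjusted p = 0.0364). The 5 epithelial markers summed to 0.923 to 1.44 CPM with vehicle and 0.721 to 1.19 CPM after IL-1β, and 4 of them had no more than 3 counts in any sample. The summed levels with vehicle and after IL-1β were 0.723 to 0.998 and 0.649 to 1.25 CPM for 4 endothelial markers and 0.986 to 1.39 and 0.270 to 0.891 CPM for 3 muscle markers. They were 10.7 to 13.8 and 7.80 to 9.74 CPM for 4 Schwann cell markers and 164 to 171 and 157 to 173 CPM for 5 fibroblast markers. Among the fibroblast markers, *Pdgfra* rose by 0.58 and *Col3a1* fell by 0.34 on the log2 scale (edgeR adjusted p = 4.32e-11 and 7.01e-07), and *Col1a1* had a log2 fold change of -0.10 (edgeR adjusted p = 0.0761). For 3 osteoblast markers the summed levels were 83.9 to 94.9 and 25.9 to 31.4 CPM. All 3 (*Bglap*, *Ibsp* and *Sp7*) were downregulated DEGs, with log2 fold changes of -1.62, -3.69 and -1.42. The part of these shifts in the members' values was not tested.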

How the data were processed

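The authors deposited whole-number read counts per gene symbol for 8 RNA-Seq samples, not scaled, after trimming with cutadapt, STAR alignment to mm10 (GENCODE vM20) and counting with featureCounts. Per the submitters' processing notes, the STAR version was 2.4.2a. Whether the counts precede or follow the RUVseq correction named in the methods, and the strand setting of the counting, are not given in the sources used here. The authors also deposited the length of each gene in bases (unit: other), used here for levels per kilobase only.

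Totals per sample were 10992355 to 17456063 counts, and TMM factors were 0.984 to 1.01. The floor of 3 counts covers counting error only, because PCR copies of a molecule cannot be recognized without molecular identifiers. The labels' treatment set the groups. The counts of the 14404 genes above 1 CPM in 4 or more samples were tested with edgeR 4.0.16 (quasi-likelihood, limma 3.58.1, R 4.3.3), in a model of treatment alone. The common biological coefficient of variation was 4.11% and the prior degrees of freedom were 20.9. Adjusted p-values (Benjamini-Hochberg) are over all genes tested. The code was tested on simulated counts of this comparison: of 14404 genes, 200 were changed, and edgeR recovered 100% of them with 15 false calls. That share is over all 200 genes together, and the recovery of small log2 fold changes was not tested separately.

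The members and the gene lists were chosen with earlier results of these data known. Named genes are the members and, from the pathway list, the DEGs, the 10 most abundant genes per kilobase and the other ligands and receptor of the family; others are marked. Positions are from GENCODE vM21 (GRCm38), in which 98.8% of the symbols matched 1 gene. For *Hbegf*, vM21 lists 4834 exon bases against 2373 in the table. Motifs were searched with Python 3.11.15, exact permutation tests used scipy 1.17.1, and figures were drawn with matplotlib 3.10.9. The alternatives were DESeq2 1.42.0, other scaling and filters, a replicate block, 1 RUVs factor, a 1.5-fold threshold, another gene length, and leaving out each sample.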

Additional observations from a re-analysis of the deposited data

Results flagged for a closer look

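Dixon's test at the 95% level was applied to the highest and the lowest sample of each group. It covered the members and the tested pathway genes named here, except *Lrig3* and *Spry4*. Of 60 groups of 4 samples, 6 held a sample that stood apart, and chance gives about 1 in 20, or 3. *Btc* was at 0.426 CPM in IL-1β sample 4 and at 0.178 to 0.216 CPM in the others. *Erbb3* was at 2.20 CPM in vehicle sample 2 and at 3.23 to 3.42 CPM in the others, and without that sample its log2 fold change was 0.22 (edgeR adjusted p = 0.372). *Rhbdf2* was at 46.8 CPM in vehicle sample 4 and at 49.7 to 50.2 CPM in the others. *Ptpn11* was at 181 CPM in IL-1β sample 1 and at 176 to 177 CPM in the others. *Spred2* was at 53.7 CPM in IL-1β sample 4 and at 62.6 to 63.0 CPM in the others. *Lrig1* was at 14.3 CPM in IL-1β sample 1 and at 15.3 to 15.5 CPM in the others.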

How the results depend on the processing

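Of 419 log2 fold changes of 28 named genes under the alternatives, 418 kept their direction and their side of an adjusted p-value of 0.05. The exception was *Erbb3* without IL-1β sample 4 (log2 fold change 0.48, edgeR adjusted p = 0.0310). *Lrig3*, *Spry4* and the cell type markers were not among the 28 genes, so their calls were not examined in this way. Against the 2-fold threshold, *Etv1* (log2 fold change 1.02) was at 0.94 without IL-1β sample 3, 0.96 without vehicle sample 1 and 0.98 without vehicle sample 4, and so was no DEG there. *Egf* (-0.90) was at -1.06 without IL-1β sample 1 and without vehicle sample 4, and so was a DEG there. The number of changed members was 5, and 6 with no filter on low counts, where *Areg* passed and made 3 DEG members. Leaving out 1 sample at a time gave 5 to 6 changed members, 2 DEG members throughout, 38 to 42 changed pathway genes (40 with all samples) and 5303 to 5622 changed genes in all (5796 with all samples). With a 1.5-fold threshold, 4 members were DEGs in place of 2, *Egfr* and *Errfi1* being added. DESeq2 gave 4937 changed genes in all and the RUVs factor 6115, with 5 changed members each. With the replicate number as a replicate block, 5 members were changed and *Ereg* had a log2 fold change of 3.13 and *Nrg1* of 1.24. Deviations of same-numbered samples correlated at 0.0416, -0.0505, -0.0118 and -0.0699, against a mean of 0.00755 for other pairs. Such correlations cannot show whether same-numbered samples shared mice or cultures, because counting error alone can keep them near this mean. Scaling by the total library size moved the median log2 fold change of all genes most, to -0.00605. With 3 counts equal to 0.173 to 0.270 CPM, depth limits what can be said of *Btc* and *Areg*, and differences of *Tgfa*, *Erbb2* and *Erbb3* within their confidence intervals were not detectable.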

Other observations

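*Spry1*, a Sprouty inhibitor of receptor signaling that was named after its values were seen, was too low to be tested. It had 9, 2, 11 and 3 counts in IL-1β samples 1 to 4 and 17, 21, 21 and 22 counts in vehicle samples 1 to 4. All IL-1β counts were below all vehicle counts, and 24.4% of its exon bases are shared with the antisense gene *Gm42922*. With no filter on low counts, the log2 fold change of *Spry1* was -1.50 (SE 0.345, edgeR adjusted p = 0.000148).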
